A study of Mus musculus with 4 samples.

Results

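LIF, leukemia inhibitory factor, was compared with no LIF in wild type C57BL6 mice that had received dextran sulfate sodium (DSS), using the 2 of 4 arrays chosen by their genotype and treatment labels. One array carried RNA of lamina propria lymphocytes from wild type mice given DSS and LIF. The other carried the same cells from wild type mice given DSS alone. Both groups therefore share the DSS exposure, and cells of both were taken on day 10. The other 2 arrays, of mice labelled Stat4-/- with DSS and with DSS and LIF, are shown beside them. The series design names 5 mice per group and 1 array each; whether RNA of the 5 mice was pooled is not stated, and neither are their age or sex. Mock-water mice are not analysed here. The design asks which genes of these cells differ when LIF is added to DSS.

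DSS is a polymer that injures the colon lining and brings on colitis. LIF is a cytokine of the interleukin-6 family. It binds its receptor LIFR together with the shared chain gp130 (Il6st), which activates JAK kinases and STAT transcription factors, above all STAT3. SOCS proteins such as SOCS3 and CIS (Cish) are induced by STATs and feed back on the receptor. The lamina propria is the connective tissue under the gut epithelium, and its lymphocytes, with the other immune cells that come with them, meet the products of injured epithelium in colitis.

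The array with LIF was the dimmest and stood apart from the rest. The 75th percentile of its processed signal was 23.8, against 43.3 to 122.9 on the others, and 37.6% of its 39429 probes were well above background, the mark the scanner software gives a spot clearly brighter than its surroundings, against 44.9% to 61.7%. Its Pearson correlation with the other arrays was 0.800 to 0.818 over 12674 probes well above background on all 4, where the others correlated at 0.951 to 0.980. The arrays with and without LIF came from different scans, so LIF, scan and array cannot be told apart, and no LIF difference in wild type can be given without the array that stands apart. The part of the dimness in the differences was not tested. Of 23 T cell markers with a probe, 21 were well above background without LIF and 17 with it, among them Cd3e, Cd3d and Cd3g. Of 27 intestinal epithelium markers 26 and 22 were, and of all 20659 genes with a probe 68.1% and 45.4% had one with the mark. These preparations carried epithelial as well as T cell transcripts. The single Stat4 probe did not separate the genotypes, at log2 levels of −0.49 and 0.21 in wild type and 0.31 and −0.48 in the labelled knockout, without and with LIF. Fewer cells of a type and less RNA per cell cannot be told apart in such samples.

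Levels below are log2 processed signals with the 75th percentile of the same array set to 0, and a LIF difference is the level with LIF minus the level without. Each group being 1 array, there is no replicate behind any difference, and p-values were not computed. What was used in place of replicates was agreement between probes of the same gene. A probe was measured when it was well above background on both arrays, and a gene's probes agreed when it had at least 2 measured probes, all differences had the same sign, and they lay within 1 log2 of each other. Of 9074 measured genes 7782 had 1 measured probe and 1292 had 2 or more. In 508 of these 1292 genes the probes agreed (39.3%, exact binomial 95% interval 36.6% to 42.0%, which covers counting error only). The difference was positive in 385 and negative in 123 of them. For reference, probes agreed in 54.8% of 1632 genes for LIF in the labelled knockout and in 50.9% of 1833 between genotypes under DSS. In wild type, LIF differences of the 2 brightest probes of a gene correlated at a Pearson r of 0.10. All probes had the same sign in 54.3% of the 1292 genes.

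Genes with agreeing probes, each of them at least 2-fold higher or each at least 2-fold lower, numbered 147. They were led by 3 members of the Paneth cell and antimicrobial list, Defa3, Defa23 and Itln1, and included the MHC class II gene H2-Ab1 and the chemokine gene Ccl19 among the higher and Tet2, Eif2s3x and Set among the lower genes. Higher with LIF were 127 genes (9.83% of the 1292) and lower were 20 (1.55%). Over all 9074 measured genes, whatever their probes, 33.4% passed 2-fold upwards and 12.3% downwards. The dimmest level with the background mark was −1.49 with LIF and −3.79 without. A probe below −1.49 without LIF could thus be measured only if it was higher with LIF. In such probes the positive sign, and in the dimmest also the 2-fold size, follows from this filter. Its share in the higher calls was not tested. The balance also depends on scaling, since the median difference of all measured genes was 0.55. When each difference was taken relative to that median, 46 genes were higher and 64 lower with agreeing probes, and 1613 and 1887 among all genes. With normexp background correction and an offset of 50 they were 14 and 54, and 792 and 1435. The excess of higher over lower genes did not hold in these settings. The 28 named genes with agreeing 2-fold probes kept their sign in each alternative that gave a value, apart from Nrxn3, whose mean over all probes was 0.55 with no background filter.

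The largest differences with agreeing probes were in alpha-defensin genes, whose products are antimicrobial peptides of Paneth cells. The 3 probes of Defa3 read 1.00, 0.49 and 0.22 without LIF and 8.63, 8.22 and 7.71 with it, a mean difference of 7.61 or 196-fold. In the labelled knockout the same probes read 6.43, 5.73 and 5.88 without LIF and 6.08, 5.50 and 5.39 with it. The DSS array of wild type was thus the low one, and the other 3 were all high. Defa23 followed the same order. Its 2 probes read 0.92 and 2.21 in wild type with DSS, 8.34 and 9.77 with DSS and LIF, 6.12 and 7.65 in the labelled knockout with DSS, and 5.91 and 7.22 with DSS and LIF. The copies of this gene family are nearly identical, so which member gave a signal is uncertain and these 5 probes are not independent.

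Itln1, which encodes intelectin-1, a lectin of Paneth and goblet cells that binds microbial sugars, showed the third largest difference. Its 2 probes read 0.78 and 0.68 without LIF and 5.09 and 4.59 with it, a mean difference of 4.11 (17.3-fold). In the labelled knockout they read 3.66 and 3.60 without LIF and 2.61 and 2.50 with it, so there LIF went with a lower level, with a mean of −1.08. Again wild type with DSS alone was the lowest of the arrays. The Paneth cell and antimicrobial list had 14 measured members and a median of 2.02, with 11 members past 2-fold upwards and 1 downwards, where all measured genes had a median of 0.55 and shares of 33.4% and 12.3%. The 3 with several probes were those just described, and all 3 agreed. Goblet cell markers had a median of 1.63, with 7 of 11 past 2-fold upwards and 0 downwards, but 10 of them had 1 measured probe and those of Galnt12 differed by 0.29 and 2.18. General epithelial markers had 7 of 22 members higher, 3 lower and a median of 0.48, close to the shares and the median of all measured genes; the list median turned to −0.32 with normexp and an offset of 50. The part of epithelial content in these differences was not tested.

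**Figure D1:**
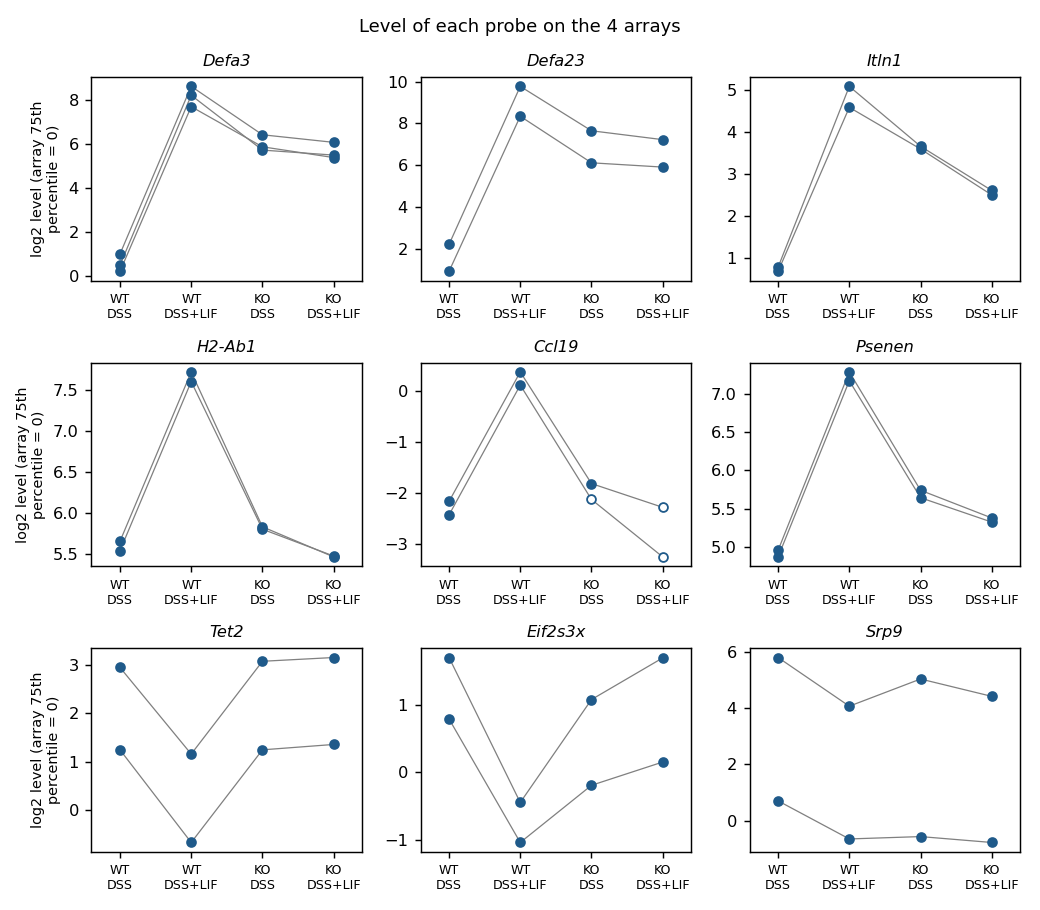
Level of every measured probe (log2 processed signal, array 75th percentile at 0) of 9 genes on the 4 arrays, WT being wild type and KO the labelled Stat4 knockout; each grey line joins the values of 1 probe and open circles are not well above background. Defa3, Defa23 and Itln1 are lowest in wild type with DSS alone, whereas H2-Ab1, Ccl19 and Psenen are high, and Tet2 and Eif2s3x low, on the wild type LIF array.

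Among antigen presentation genes, H2-Ab1, the beta chain of the MHC class II molecule I-A, was higher with LIF in both of its probes. They read 5.54 and 5.65 without LIF and 7.61 and 7.73 with it, and 5.80 and 5.83 against 5.47 and 5.46 in the labelled knockout. The difference was 2.07 in each probe (4.21-fold), and on the other 3 arrays both probes lay between 5.46 and 5.83. With 1 measured probe each, the class II beta chain genes H2-Eb1 and H2-Ob differed by 1.07 and 1.53 and the class II transactivator gene Ciita by 1.22. Cd74, the invariant chain that escorts class II molecules, was lower by the same kind of evidence, at −1.07. The list of class II genes and regulators was divided. Of its 8 measured members 4 were at least 2-fold higher and 2 lower, the lowest at −2.99. Of all measured genes 33.4% were higher and 12.3% lower. H2-Aa, the alpha chain that pairs with H2-Ab1, was not well above background with LIF, and its 1 probe was lower by at least 3.91-fold. Both probes of H2-Q2, a class I gene of the Qa region with close relatives, were lower, at 3.03 and 1.41 without LIF and 0.99 and 0.29 with it.

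Ccl19, the chemokine that draws T cells and dendritic cells through CCR7, had the largest difference with agreeing probes among cytokine and chemokine genes. Its probes read −2.17 and −2.43 without LIF and 0.38 and 0.12 with it, 2.55 in each. In the labelled knockout they read −1.82 and −2.13 without LIF and −2.28 and −3.26 with it, where only the first value was well above background. Ccl19 was thus a dim gene, and both probes were highest on the LIF array of wild type. On the other 3 arrays both read below −1.49, the dimmest level with the mark on the LIF array. Both could be measured only if highest there, so the order and the sign, though not the size, follow from the filter. It was the one gene of 18 measured on this list with more than 1 measured probe. The list was divided, with 5 genes past 2-fold upwards, Ccl19 included, and 6 downwards, beside 33.4% and 12.3% of all measured genes. Those other than Ccl19 rested on 1 probe.

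Further genes at the top belong to no list used here. Aurkaip1, a partner of Aurora kinase A that is also a protein of the small mitochondrial ribosomal subunit, read 2.18 and 2.93 without LIF and 5.07 and 6.06 with it (8.09-fold). Psenen, the PEN-2 subunit of gamma-secretase, which cleaves Notch, read 4.87 and 4.96 without and 7.17 and 7.28 with LIF (4.97-fold). Serpinb6c, a clade B serine protease inhibitor, read 1.79 and 1.72 without and 4.30 and 4.31 with LIF (5.87-fold). In each of these 3 genes the labelled knockout arrays lay closer to wild type with DSS alone than to the LIF array. For Psenen they read 5.64 and 5.74 without LIF and 5.32 and 5.38 with it.

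Syncrip, an RNA-binding protein also known as hnRNP Q, read −0.73 and −1.12 without LIF and 1.75 and 1.14 with it. Dbp, a circadian transcription factor, read −0.49 and −2.30 without and 1.48 and 0.40 with LIF. Rab27b, a GTPase of secretory vesicles, read −1.64 and −0.80 without and 0.38 and 1.67 with LIF. These were dim genes, and in each of them at least 1 probe was not well above background on an array of the labelled knockout. Dab1, the adaptor of reelin signalling, differed by 2.26 and 2.74. Sik3, a salt-inducible kinase, differed by 2.27, 2.44 and 2.32 in its 3 probes. In Dbp, Rab27b, Dab1 and Sik3, 1 probe lay below −1.49 without LIF and could be measured only if higher with LIF.

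Genes that rested on 3 measured probes were few. Besides Defa3 and Sik3 they were Mif and Gpi1 among the higher genes and Ube2b and Rab3c among the lower ones; Mif, Gpi1 and Rab3c are named here for that count, after their values were seen. Mif, a cytokine that recruits and holds macrophages and lymphocytes, read 1.81, 4.36 and 1.57 without LIF and 3.26, 6.26 and 2.88 with it, while the labelled knockout read 1.52, 3.98 and 1.21 without LIF and 1.42, 3.95 and 1.19 with it. Its probes differ widely in brightness and still gave 1.45, 1.89 and 1.30. Gpi1, a glycolytic enzyme, differed by 1.35, 1.26 and 1.29, but its 3 probes had nearly the same signal on every array. Rab3c, a GTPase of regulated secretion, was lower by 1.19, 1.16 and 1.16 in the wild type and by 0.92, 0.41 and 0.74 in the labelled knockout. With quantile scaling its wild type probes ran from −1.30 to −0.82, so not every probe stayed 2-fold lower.

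The lower genes were fewer at this scaling, with a median of −1.52 beside 1.56 for the higher ones. At 4-fold in every probe there were 13 higher and 0 lower genes. Eif2s3x, the gamma subunit of the initiation factor eIF2, read 1.70 and 0.79 without LIF and −0.45 and −1.04 with it (3.96-fold lower). Tet2, which oxidises 5-methylcytosine in DNA, read 1.25 and 2.95 without and −0.67 and 1.16 with LIF (3.61-fold lower). In the labelled knockout Tet2 read 1.25 and 3.08 without LIF and 1.36 and 3.15 with it. The wild type LIF array was thus the low one in both probes of Tet2, with the other 3 from 1.25 to 1.36 and from 2.95 to 3.15.

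Set, a histone chaperone and inhibitor of protein phosphatase 2A, read 3.06 and 5.11 without and 1.5 and 3.39 with LIF. H4c12, a histone H4 gene with near-identical copies, read 5.51 in both probes without LIF and 3.60 and 4.21 with it. Srp9, a subunit of the signal recognition particle, read 5.79 and 0.71 without and 4.06 and −0.64 with LIF. The 2 probes of Srp9 are far apart in brightness, and the array of wild type with DSS alone was the highest of the 4 in both. Ssb, the La protein that binds new RNA polymerase III transcripts, differed by −1.79 and −1.30. Ube2b, a ubiquitin-conjugating enzyme, differed by −1.19, −1.84 and −1.33 and was also lower with LIF in the labelled knockout, by 0.35, 0.74 and 0.33. Stmn4 of the stathmin family differed by −2.24 and −1.58, the sorting nexin gene Snx9 by −1.91 and −1.11, the neurexin gene Nrxn3 by −1.14 and −1.80, and the odorant receptor gene Olfr616 by −1.31 and −1.79.

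**Figure D2:**
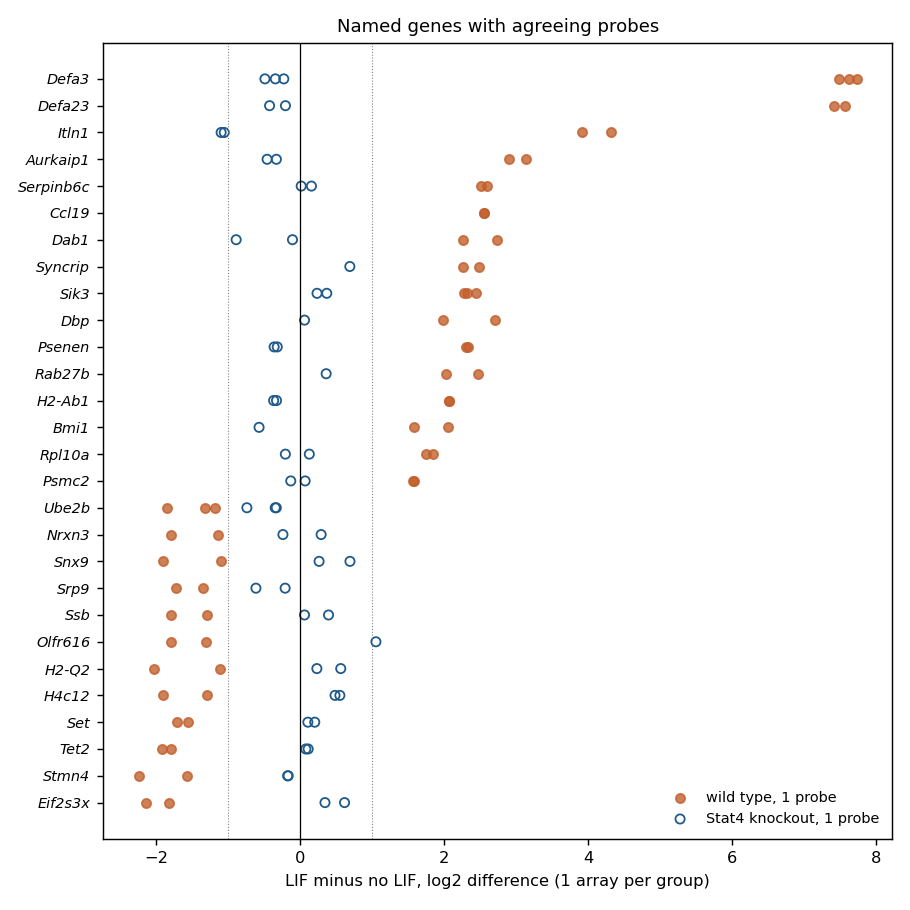
LIF difference (log2, 1 array per group) of each measured probe of the 28 named genes with agreeing probes, filled for wild type and open for the labelled Stat4 knockout where the probe was well above background on both its arrays; dotted lines mark 2-fold. Wild type values lie beyond the dotted lines by the rule that chose the genes, from 7.73 (Defa3) to −2.24 (Stmn4), and the knockout values of the same probes lie near 0 or on the other side for most genes, with Itln1 at a mean of −1.08.

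The LIF difference of the labelled knockout was not used to choose these genes and shares no array with that of wild type. Of the 127 higher genes 114 were measured there. Their median LIF difference was −0.01, from −1.08 to 0.89, it had the same sign in 57, and in 0 was every probe at least 2-fold higher. All 20 lower genes were measured there, with a median of 0.31 and the same sign in 6. In that comparison 0.306% of 1632 genes with 2 or more measured probes had agreeing probes past 2-fold upwards, and 0.306% downwards. Of 298 genes whose probes agreed in both genotypes the sign was the same in 135 and opposite in 163. In 146 of the 147 genes the LIF array of wild type lay outside the range of the other 3 arrays, Olfr616 being the exception. In 66 of the 147 the array of wild type with DSS alone did. Both counts depend on the rule that chose the genes by the difference between these arrays. No share over all genes is given beside them. Whether the LIF difference itself depends on genotype was not tested.

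The 147 genes stand against a background in which probes of a gene mostly disagreed. Replicate spots of a probe gave a median SD of the difference of 0.099 (151 probes with 5 or more spots). Probes of a gene gave a median SD of 0.761, which is 7.69 times as large, and a median range of 1.12. In the labelled knockout the corresponding SDs were 0.103 and 0.259. The range over probes exceeded 2 log2 in 26.5% of genes in wild type and in 0.368% in the labelled knockout. The genotype comparison under DSS and LIF, which uses the same LIF array, gave an SD between probes of 0.769, and that under DSS, which does not, gave 0.379. In wild type 590 of 1292 genes had probes of opposite sign. Such genes were nearly as common elsewhere, with 690 of 1632 in the labelled knockout and 776 of 1833 between genotypes under DSS. What differed was size: probes at least 2-fold apart from 0 in opposite directions occurred in 163 genes in wild type. In the labelled knockout they occurred in 2 of 1632. The 163 are more than the 147 genes with agreeing 2-fold probes, and fewer than the 184 in which every probe was past 2-fold in the same direction at any range.

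**Figure D3:**
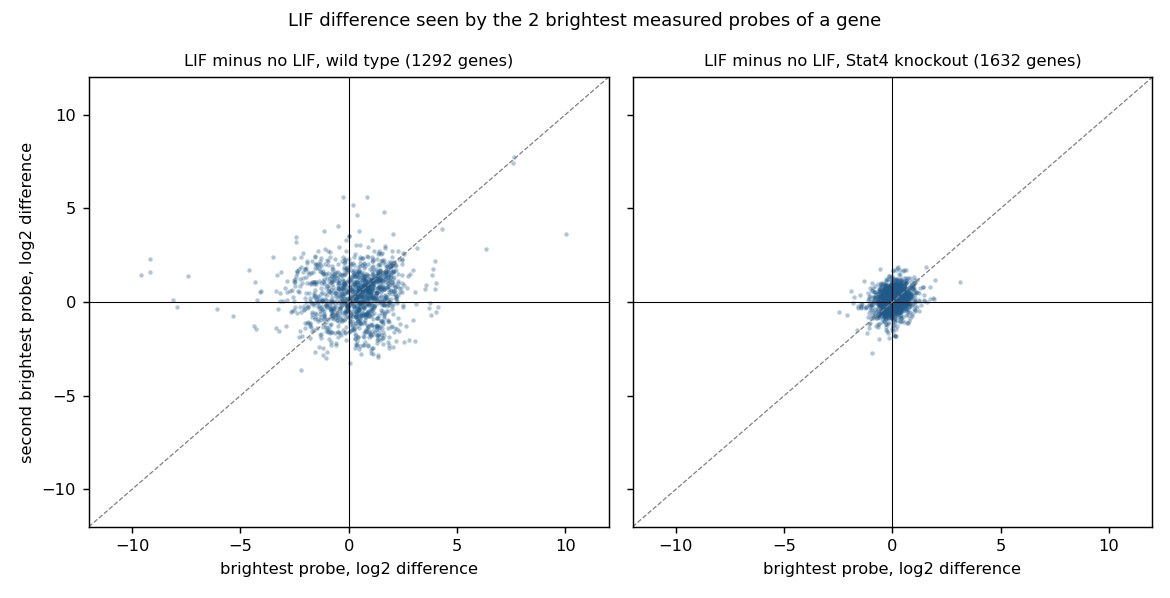
LIF difference (log2) of the second brightest against the brightest measured probe of a gene, 1 point per gene, for wild type (1292 genes) and the labelled Stat4 knockout (1632 genes); the dashed line marks equal differences. Wild type points fill all 4 quadrants with few along the line, the median range over probes being 1.12, and the knockout points cluster around 0.

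The disagreement extended to genes that every cell uses, in dim and in bright probes. Gapdh, the glycolytic enzyme often used as a reference, had 7 measured probes with differences from −1.48 to 1.20. Ldha, lactate dehydrogenase, had 1 probe that read 5.00 without and 7.20 with LIF, and 2 others that differed by −2.09 and −1.5. Rpsa, a ribosomal protein of the small subunit with many processed pseudogenes, had 4 probes from −1.67 to 1.61. Its 3 brighter probes were all lower, by −0.23, −1.67 and −0.99, and the positive one was dim, at −2.42 without and −0.81 with LIF. That probe, below −1.49 without LIF, could be measured only if higher with LIF, so its sign follows from the filter. The ubiquitin gene Ubb had −1.07 and 1.88, and Psmc1, an ATPase of the proteasome, −1.02 in a dim probe and 1.5 in a brighter one. In Gapdh and Ubb probes went both ways among the bright ones too, as in Ubb with 3.63 and 4.83 without and 2.56 and 6.71 with LIF. Thus no direction can be given for Gapdh, Ldha, Ubb and Psmc1, and none is drawn for Rpsa, where the filter set the sign of 1 probe. Of the genes closer to lymphocytes and crypts, the costimulator Icos had −1.32 and 1.17 and the Wnt effector Tcf7l2 had −1.46 and 1.81. For the lists together, 472 of 726 genes were measured, 125 at least 2-fold higher and 75 lower (33.4% and 12.3% of all measured genes were), or 64 and 123 relative to the median of all genes. Of 66 with several measured probes, 25 agreed (39.3% of all such genes did), 8 were at least 2-fold higher in every probe, 0 were lower, and 7 were 2-fold in opposite directions.

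Agreement was more frequent where the probes of a gene resembled each other on the 3 other arrays. Where their signals there lay within 0.3 log2, 47 of 56 genes agreed (83.9%). The share was 58.7% of 247 genes with a gap of 0.3 to 1, 38.1% of 294 from 1 to 2, 32.4% of 259 from 2 to 3 and 27.5% of 436 with a gap over 3. Opposite 2-fold differences occurred in 1 of the 56 and in 84 of the 436. Probe sequences were not used here, so whether such probes overlap in sequence was not tested. Of the 147 genes 21 had probes matched within 0.3, among them Itln1, Psenen, Serpinb6c, H2-Ab1, Psmc2 and H4c12, and without them 107 higher and 19 lower genes remained. Across quartiles of genes by level, from the dimmest to the brightest, agreement was 42.7%, 38.4%, 34.1% and 42.1%, and opposite 2-fold differences numbered 28, 46, 50 and 39. Of the 147 genes, the higher ones numbered 47, 28, 28 and 24 in these quartiles and the lower ones 4, 4, 6 and 6. The median difference fell from 0.67 in the dimmest quartile to 0.17 in the brightest. With only the brighter 50% of probes kept, agreement was 46.2%. It was 40.6% where all probes of a gene were designed on a single RefSeq accession and 28.4% where they were designed on several.

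**Figure D4:**
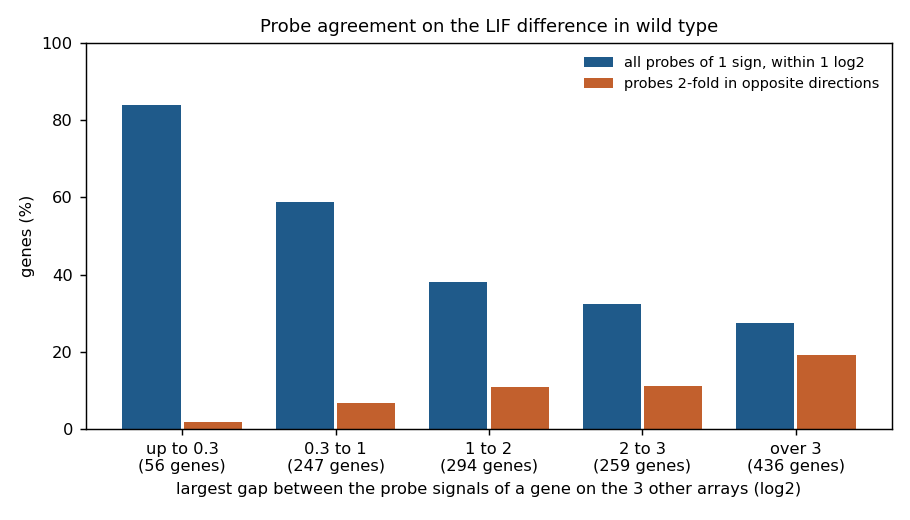
Percent of genes whose probes agreed on the LIF difference in wild type (blue), and percent with probes 2-fold in opposite directions (orange), by the largest gap between their signals on the 3 other arrays (log2). Agreement is 83.9% for the best matched probes and 27.5% for gaps over 3.

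The LIF pathway itself gave little that a second probe could check. Of 36 genes on the list 33 were well above background without LIF and 20 with it, beside 68.1% and 45.4% of all genes with a probe. Of the 20 measured, 3 passed 2-fold upwards and 2 downwards, beside 33.4% and 12.3% of all measured genes. Their median was 0.20, which turned to −0.42 with normexp and an offset of 50 and to −0.35 relative to all genes. Among ligands and receptors, Lif read 2.88 without and 0.80 with LIF treatment in its 1 measured probe, 4.24-fold lower, and 4.97 and 5.11 in the labelled knockout. The receptor genes Lifr and Il6st were below the background mark on the LIF array. The brighter of the 2 Lifr probes was lower by at least 1.12-fold and the other gave no bound above 1-fold, so neither direction nor size is settled for Lifr. The 1 probe of Il6st was lower by at least 1.01-fold, which leaves the size of its difference unmeasured. The receptor subunit gene Il11ra1 differed by 1.34, the ligand gene Cntf by 1.52, Cntfr by 0.94 and Il6ra by −0.90, each by 1 probe. Cntf and Cntfr read −2.58 and −2.11 without LIF, below −1.49, the dimmest level with the mark on the LIF array. Both could be measured only if higher with LIF, and Cntf is 1 of the 3 genes past 2-fold upwards.

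Among kinases and transcription factors, Stat3 was the one list member whose probes agreed. They read 2.48 and −0.53 without LIF and 2.41 and −1.29 with it, differences of −0.07 and −0.76. The probes of Stat5b were far apart. One of them read 10.20 without and 2.26 with LIF, 11.52 and 10.72 in the labelled knockout, and the other read −0.31 and −0.58, so its differences were −7.94 and −0.27. Jak1 (0.63), Jak2 (0.81) and Stat5a (0.07) had 1 measured probe each and differed by less than 2-fold. The phosphatase gene Ptpn11, whose product SHP2 docks on gp130, differed by 1.52.

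Of the targets of STATs named here, those measured on both arrays differed by less than 2-fold. Socs3 read 2.08 without and 2.31 with LIF, and 3.43 and 2.93 in the labelled knockout. Cish read 2.35 and 2.52, and 2.05 and 1.75 in the labelled knockout. These differences of 0.23 and 0.18 lie within the SD between probes and take the other sign with normexp, at −0.67 and −0.80 with an offset of 50. Socs1 (−0.19), Bcl3 (0.04), Junb (−0.03), Cebpd (0.36), Cebpb (−0.83), Klf4 (0.75) and Fos (0.84) also stayed under 2-fold, each by 1 probe. Pim1 and Lrg1 were below the background mark with LIF and lower by at least 2.02-fold and 2.29-fold, each by 1 probe. Of the 3 probes of Socs2 the brightest was lower by at least 3.84-fold, but at least 1 other gave no bound above 1-fold, so its probes do not settle a direction. Over all genes, 467 had 2 or more probes with the mark without LIF and none with it. Every probe was bounded lower in 42 of these, by at least 2-fold in 7, and in 238 no probe was. The reverse held in 2 genes, Txlng and Rnf208, both at least 2-fold higher in every probe and named after their values were seen.

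The letters that STAT dimers bind, TTCNNNGAA, were looked for in promoters from 250 bases before to 50 bases after the start site (RefSeq, GRCm38.p6). The word is its own reverse complement, so 1 search covers both strands. The 3 promoters below are shown because Socs3 and Cish are textbook STAT targets and Dbp is a gene of the highest 12 that holds the word; they read 5′ to 3′ on the strand of the gene, with matches in capitals. The windows are chr11:117969317-117969616 on the minus strand for Socs3, chr9:107296409-107296708 on the plus strand for Cish and chr7:45704997-45705296 on the plus strand for Dbp.
Socs3: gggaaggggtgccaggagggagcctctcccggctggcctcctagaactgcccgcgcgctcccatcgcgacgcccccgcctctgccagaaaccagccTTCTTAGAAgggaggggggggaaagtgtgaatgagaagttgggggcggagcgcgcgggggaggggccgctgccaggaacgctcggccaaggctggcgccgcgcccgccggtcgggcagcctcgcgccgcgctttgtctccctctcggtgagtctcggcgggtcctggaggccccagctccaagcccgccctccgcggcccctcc
Cish: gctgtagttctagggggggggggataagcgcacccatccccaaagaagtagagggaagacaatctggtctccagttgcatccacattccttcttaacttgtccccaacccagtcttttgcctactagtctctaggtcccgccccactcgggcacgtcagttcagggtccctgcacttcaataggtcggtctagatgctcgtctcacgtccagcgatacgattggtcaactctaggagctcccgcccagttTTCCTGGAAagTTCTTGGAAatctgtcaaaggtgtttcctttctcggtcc
Dbp: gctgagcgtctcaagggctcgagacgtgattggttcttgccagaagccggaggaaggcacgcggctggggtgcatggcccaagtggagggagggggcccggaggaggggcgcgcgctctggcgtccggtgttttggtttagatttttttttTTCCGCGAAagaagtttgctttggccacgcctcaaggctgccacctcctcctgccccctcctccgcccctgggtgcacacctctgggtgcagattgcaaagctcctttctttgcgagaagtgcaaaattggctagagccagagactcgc
The match begins 154 bases before the start site in Socs3 and 99 bases before it in Dbp, and Cish holds 2 matches, the second beginning 11 bases after the start site. The word occurred in 9.55% of 27025 promoters of the table and in 8.36% of the 7272 measured genes with one. Of the 127 higher genes 106 had a promoter in the table and 7 held it (6.6%), and of the 20 lower genes 17 had one and 0 held it. With 1 more base in the gap the word occurred in 8.01% of all promoters and in 6.64% of those of measured genes. It occurred in 10 of the 106 (9.43%) and in 2 of the 17 (11.8%). These shares are descriptions, and a match is not a binding site.

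Immune cell lists had few members with a second probe. Cxcr6, a chemokine receptor of tissue-resident T cells on the Th1 list, differed by −0.12 and −0.11. Ikzf2, the Helios gene of regulatory T cells, differed by 0.06 and 0.65. The granule gene Nkg7 differed by 0.15 and 1.65, so its probes did not agree. On the B cell list the complement receptor gene Cr2 differed by 0.77 and 1.59 and Cd72 by −0.42 and −0.33. The macrophage growth factor receptor gene Csf1r differed by −0.38 and −0.36, whereas Itgam had −0.69 and 3.78. None of these genes was 2-fold apart in the same direction in every probe. No T cell, plasma cell, neutrophil or dendritic cell marker had 2 measured probes, and 20 interferon-stimulated genes had 1 each, of which 10 were at least 2-fold higher and 2 lower (median 1.07, or 0.44 with normexp and an offset of 50), beside 33.4% and 12.3% of all measured genes. Of 16 Th17 genes with a probe 14 were well above background without LIF and 4 with it, beside 68.1% and 45.4% of all genes with a probe.

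In housekeeping machinery agreement also marked a minority. Of 32 measured genes on the cytosolic ribosome list 16 had several probes, 8 of those had probes of the same sign and 4 agreed. Over all genes with several measured probes 39.3% agreed. Outside the list, Rpl34 agreed at 1.22 and 1.46, whereas Rpl13, Rpl17 and Rpl7a had 2-fold probes in opposite directions. Rpl10a, of the large subunit, read 4.05 and 5.65 without and 5.89 and 7.39 with LIF (3.46-fold). Rpl11 and Rps27a agreed at 0.62 and 0.92. Others lay further apart, with Rps6 at −2.31 and −0.82 and Rps3 at 0.88 and 2.38. The list median was 0.05, or −1.0 with normexp and an offset of 50. Of 26 measured genes on the proteasome list 6 had several probes. Psmc2, an ATPase of the regulatory particle of the proteasome, was the one that agreed, at 1.58 and 1.56. Bmi1, a Polycomb protein of stem cells, read −2.43 and −0.24 without and −0.86 and 1.82 with LIF, while Msi1, an RNA-binding protein on the same stem cell list, was lower by 1.51 and 0.67. The first Bmi1 probe, below −1.49 without LIF, could be measured only if higher with LIF. The cyclin gene Ccnb1 differed by 0.79 and 1.38 and its kinase partner Cdk1 by 0.29 and 0.48.

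**Figure D5:**
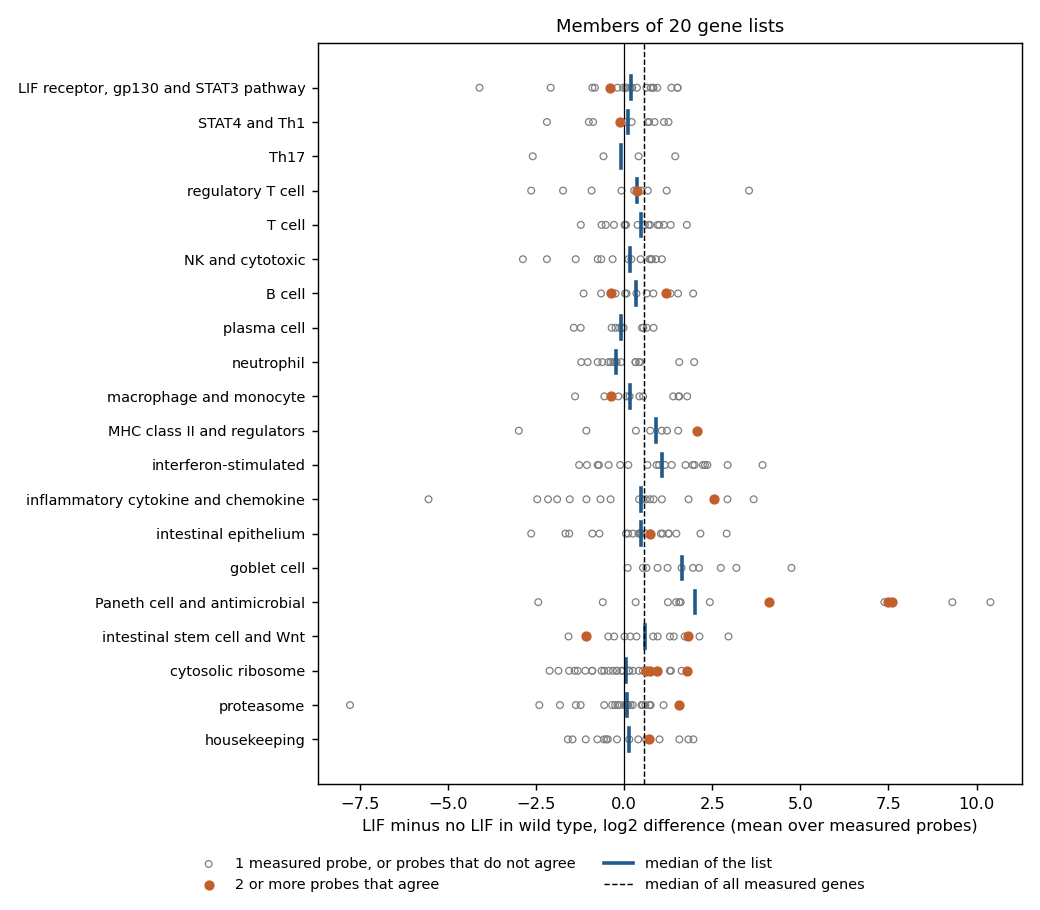
LIF difference in wild type (log2, mean over measured probes) of the measured members of 20 gene lists; filled points have 2 or more agreeing probes, blue bars are list medians and the dashed line is the median of all measured genes at 0.55. Paneth cell (median 2.02) and goblet cell (1.63) lists lie highest, and most lists scatter on both sides of 0 with few filled points.

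The limit on the range over probes cut through a continuum. With every probe at least 2-fold, H2-Q2, Zfp867, Napa and Tatdn3 lay just inside it, at ranges of 0.92, 0.93, 0.96 and 0.99. Pmp22, Rabggtb, Nedd4l, Flrt3 and Tsc22d1 lay just outside, at 1.01, 1.02, 1.04, 1.06 and 1.08. With no limit on the range, 152 genes were higher and 32 lower in every probe.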

How the data were processed

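Per the file headers, the deposited scanner files hold spot intensity values, background-subtracted as the processed signal, from 1-colour (Cy3) Agilent arrays read with Feature Extraction 11.0.1.1 (9.1 per the submitters' processing notes). The background and outlier marks in those files are other values that the authors deposited unchanged. The authors also deposited a table of log2 values, with a normalization that the sources used here do not give; it was an alternative.

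Outlier-marked spots were left out, and log2 processed signals minus the array's 75th percentile were averaged over spots of a probe. A probe took the well-above-background mark from 50% or more of its spots. RefSeq accessions named 27234 of 39429 probes (69.1%) as 20659 genes, using a GRCm38.p6 table for names alone. No probe was saturated. A bound is the bright level minus whichever is higher on the dim array, that probe's level or the dimmest level with the mark. Named were the 12 highest and 12 lowest genes with agreeing probes at least 2-fold apart also with quantile scaling, list members likewise, all measured pathway members, and list members with opposite 2-fold probes. Members and the 36 lists were chosen with earlier results of these data known. Alternatives included normexp (limma 3.58.1, R 4.3.3) on median signals, other scalings, filters, ranges and folds. The calling code was tested on simulated data. Precision is limited by 1 array per group.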

Additional observations from a re-analysis of the deposited data

Results flagged for a closer look

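In 11 of the 28 named genes with agreeing 2-fold probes, the agreeing probes of the labelled knockout pointed the other way with LIF. Their knockout means lay beyond the SD between probes of 0.259 there. Opposite signs were common, in 163 of the 298 genes whose probes agreed in both genotypes. The wild type values had been used to choose the named genes. The values that follow are mean log2 LIF differences, in wild type first and in the labelled knockout second. Higher with LIF in wild type were Itln1 4.11 and −1.08, Aurkaip1 3.02 and −0.40, Dab1 2.50 and −0.50, Defa23 7.49 and −0.31, Defa3 7.61 and −0.35, H2-Ab1 2.07 and −0.35 and Psenen 2.31 and −0.34. Lower with LIF in wild type were Eif2s3x −1.99 and 0.48, H2-Q2 −1.58 and 0.40, H4c12 −1.60 and 0.52 and Snx9 −1.51 and 0.48. Of these genes Itln1 alone had every probe at least 2-fold in both genotypes. The difference between genotypes was not tested, since each group has 1 array.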

How the results depend on the processing

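No paired analysis was possible because each group has 1 array, and no replicate could be left out for the same reason. Main values were 127 higher and 20 lower genes with agreeing 2-fold probes, 385 and 123 agreeing in either size, 39.3% agreement, 163 genes with opposite 2-fold probes, 3028 and 1113 among all genes, and 125 and 75 list members. With normexp and an offset of 50 these were 14 and 54, 326 and 317, 49.8%, 29, 792 and 1435, and 33 and 111, so the balance turned, and 19 of its 68 genes were among the 147. Of the 28 named genes 13 stayed 2-fold in every probe there: Defa3, Defa23, Itln1, Aurkaip1, Serpinb6c, Ccl19, Dab1, Syncrip, Stmn4, Tet2, Set, H4c12 and Ube2b. Normexp without an offset left 101 opposite genes and kept the other counts within 1.5 times, with 89 of 115 genes shared. With no background filter the values were 729 and 120, 1257 and 450, 31.2%, 884, and 8696 and 2807, with 137 list members lower, and Nrxn3 turned to 0.55. In the brighter 50% of probes they were 52 and 10, 168 and 57, 46.2% and 58, with 1395 of all genes higher. Relative to the median of all genes, chosen after seeing the data, they were 46 and 64, 231 and 233, 35.9%, 1613 and 1887, and 64 and 123. A range of at most 0.5 gave 25.7%, 256 and 76 agreeing and 12 lower genes; a range of at most 2 gave 51.4%; sign alone gave 54.3% and 32 lower genes. At 1.5-fold 224 and 53 genes were called, and at 4-fold 13 and 0, with 806 and 399 among all genes. Quantile scaling, scaling to the median of shared probes, the authors' deposited table and probes well above background on all 4 arrays kept each of these counts within 1.5 times, sharing 129, 122, 136 and 109 of the 147 genes. So did leaving out genes with matched probes, and taking the brightest probe for the counts that do not need several probes. The cause of the differences between settings was not tested. The LIF array's dimness limits what was measured, since 37.6% of its probes were well above background.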
